A study of Homo sapiens with 4 samples.

Results

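Keratin genes were examined in RNA-seq libraries of PANC-1, a cell line from a human pancreatic ductal adenocarcinoma, and of PZT-2, a clone of it in which the histone variant H2A.Z was knocked down. The set held 10 keratin genes, KRT7, KRT8, KRT10, KRT15, KRT17, KRT18, KRT19, KRT80, KRT81 and KRT86, taken by name from the 57 keratin genes in the symbol column of the deposited results. Of these, 9 had estimated counts, from 14 transcripts, among the 15221 genes and 31077 transcripts with counts in all. KRT17 had no value here and was not analysed. The study asked which transcripts change when H2A.Z is depleted. There were 2 libraries for each cell line, with 12861458 to 15717564 recovered counts each, and the study calls them biological replicates. The labels do not say whether they came from separate cultures, and the p-values measure the spread between these libraries.

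PANC-1 was the wild-type line, not transduced. PZT-2 had been transduced with lentiviral particles that express shRNAs against the H2A.Z transcripts from the U6 promoter, and had been selected with puromycin. It is 1 clone, chosen by the study for its low H2A.Z and its slow growth. The study sequenced it because its senescence was the strongest, and reports that most cells depleted of H2A.Z were arrested in the cell cycle. In the libraries analysed here the knockdown therefore cannot be told apart from the vector, the selection or the choice of a clone. Changes that come with the arrested, senescent state cannot be told apart from other effects of the knockdown either. Both lines were grown in DMEM with fetal bovine serum and were at the same range of passages. Libraries of cells with a scrambled shRNA were not analysed here. The study reports that genes changed in PZT-2 against those cells were similar to those changed against PANC-1. Its other assays included another clone, PZT-1, and re-expression of the isoforms. The targeted genes were lower in both PZT-2 libraries. H2AFZ fell from a normalized count of 6209 ± 251 (SD, n = 2) to 2234 ± 32.7 (n = 2). Its log2 fold change was -1.47, and edgeR's quasi-likelihood test gave an adjusted p of 6.24e-05. H2AFV fell by 0.36 on the log2 scale (adjusted p = 0.00573, edgeR), a call that was lost without PZT-2 replicate 1 (0.0601) and with the most abundant transcript alone.

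Keratins are the intermediate filament proteins of epithelial cells. A filament is built from pairs of 1 acidic type I and 1 basic type II chain, and a chain without a partner is usually degraded, so cells tend to hold both types in balance. Simple epithelia, such as the pancreatic duct, use KRT8 and KRT18 as their main pair, together with KRT19 and KRT7, while other keratins belong to stratified epithelia or to hair. The filaments are tied to desmosomes and hemidesmosomes and help a cell to withstand mechanical stress.

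In PZT-2 the transcripts of the simple epithelial keratins KRT8, KRT18 and KRT19 were lower than in PANC-1. KRT8 fell to 44.5% of its PANC-1 level, KRT18 to 57.2% and KRT19 to 60.4%, each with both PZT-2 libraries below both PANC-1 libraries. KRT80 fell to 77.8%, a smaller change whose call depended on the processing. KRT7, KRT10, KRT15, KRT81 and KRT86 did not pass the test. In all, 4 of the 9 genes passed at an adjusted p of 0.05, all lower in PZT-2, where 28.4% of the 15101 genes tested passed in either direction, 13.7% as lower and 14.7% as higher. With DESeq2 the same 4 genes passed, against 21.3% of all genes. The PZT-2 libraries lay below the PANC-1 libraries without overlap for 8 of the 9 genes, against 32.9% of all genes tested. The median log2 fold change was -0.36 over the 9 genes and 0.00117 over all genes tested. In bulk RNA a fall can come from fewer cells that express a gene or from less RNA per cell, and the data cannot tell these apart.

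**Figure D1:**
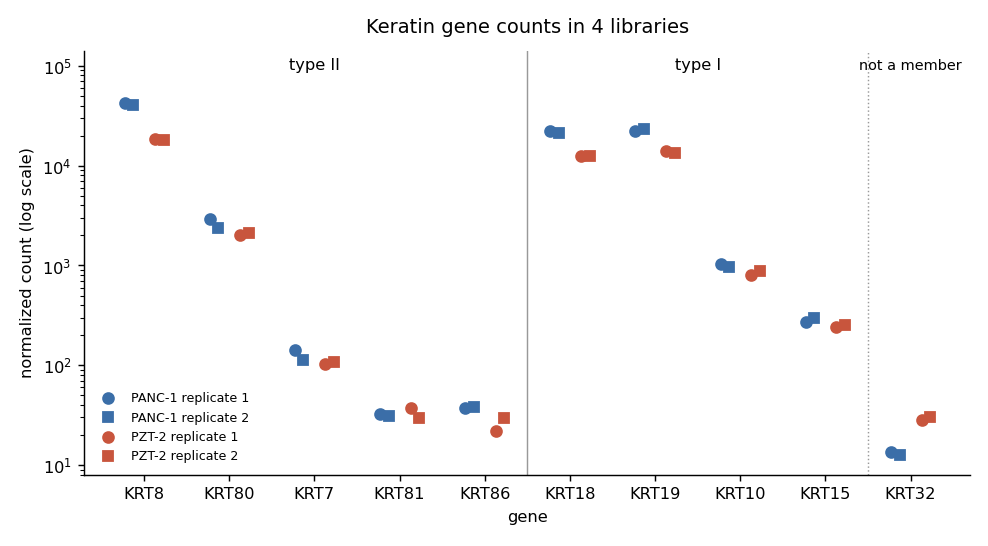
Normalized count of each keratin gene in each library, on a log axis, with PANC-1 in blue, PZT-2 in red, circles for replicate 1 and squares for replicate 2. KRT8, KRT18 and KRT19 stand highest in all 4 libraries and are lower in both PZT-2 libraries, while KRT32, which is outside the set of 10, is near 13 in PANC-1 and near 30 in PZT-2.

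The level per transcript length was compared with the deposited TPM, summed over the transcripts of a gene. KRT8 was the most abundant keratin, with 3127 and 3153 TPM in PANC-1 replicates 1 and 2 and 1472 and 1424 TPM in PZT-2. KRT19 followed with 2058 and 2192 TPM in PANC-1 and 1356 and 1315 TPM in PZT-2, then KRT18 with 2041 and 2036 TPM in PANC-1 and 1213 and 1214 TPM in PZT-2. In PANC-1 the levels of KRT19 and KRT18 differed by less than the spread of KRT19. The other genes stood far lower. KRT80 had 70.2 to 97.5 TPM over the 4 libraries, KRT10 52.0 to 63.5 TPM, KRT15 18.7 to 21.9 TPM and KRT7 8.437 to 11.005 TPM. KRT81 (2.19 to 2.74 TPM) and KRT86 (1.35 to 2.28 TPM) were the lowest and overlapped in PANC-1. The order of the mean levels was the same in both cell lines from KRT8 down to KRT7.

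Among type II keratins, KRT8, the chief type II chain of simple epithelia, had normalized counts of 41912 and 40943 in PANC-1 and 18669 and 18172 in PZT-2. The PZT-2 libraries were far below the PANC-1 libraries, and replicates differed little. The log2 fold change was -1.17 with a standard error of 0.0398 and an adjusted p of 5.97e-05 (edgeR). Over the 15 other fits it stayed between -1.20 and -1.12, with a highest adjusted p of 0.00249. KRT8 was the only one of the 9 genes whose change exceeded 2-fold.

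KRT8 counts came from 4 transcripts that begin at different places on chromosome 12 and share their downstream exons. In the GENCODE 29 models on GRCh38, matched by RefSeq accession, NM_002273 lies at chr12:52897194-52906618 on the minus strand. NM_001256282 starts 19.851 kb farther upstream. NM_001256293 and NR_045962 start 43.206 and 43.224 kb upstream, inside KRT18, which is read from the opposite strand. The first exon of NM_001256293, chr12:52949715-52949824, lies in the first intron of the KRT18 transcript NM_000224 and the second of NM_199187. The first exon of NR_045962, chr12:52949456-52949842, contains it and also overlaps 135 bases of the exon of KRT18 before that intron. The following 30 bases span the junction of the first and second exons and are shown because they tell the 4 transcripts apart, with the second exon in capitals. They were read from GENCODE 29.
NM_002273: tccaacctcccacagGCCATTCCTGAGAGC
NM_001256282: ggacctgcaggaaggGATCTCCGCCTGGTT
NM_001256293: cggatggaaatccagGATCTCCGCCTGGTT
NR_045962: cctcactctgtccagGATCTCCGCCTGGTT
The second exon begins at the same base in all but NM_002273, where it begins farther upstream. NM_001256282 has its start codon in its own first exon and a coding length of 1533 bases, against 1449 bases in NM_002273. NR_045962 carries a RefSeq accession of a non-coding RNA.

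**Figure D2:**
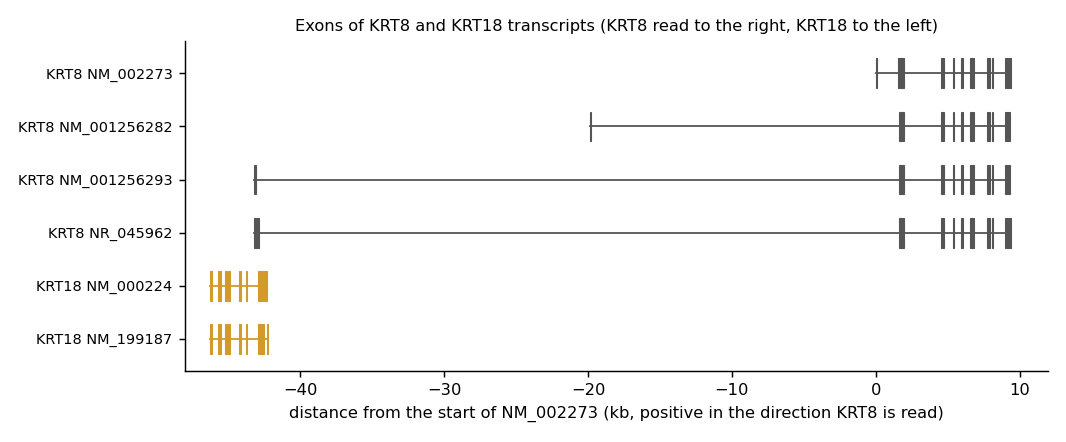
Exons (boxes) of the 4 KRT8 and 2 KRT18 transcripts against the distance in kb from the start of NM_002273, positive in the direction in which KRT8 is read. The 4 KRT8 transcripts share their downstream exons and differ in the first, which lies 19.851 kb upstream in NM_001256282 and within KRT18 in NM_001256293 and NR_045962.

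The fall of KRT8 lay in NM_002273, the transcript with the nearest start. Its recovered counts were 36814 and 44983 in PANC-1 and 18157 and 17771 in PZT-2, with a log2 fold change of -1.20 and an adjusted p of 0.0350 among transcripts (edgeR). With NM_000224 of KRT18 it was 1 of 2 keratin transcripts of 14 to pass, where 0.148% of all transcripts passed edgeR, and with DESeq2 6 of the 14 passed, where 14.4% of all transcripts did. Without any 1 of the 4 libraries edgeR called no transcript of any gene. NR_045962 had 202 and 203 counts in PANC-1 and 322 and 420 in PZT-2, so both PZT-2 libraries were higher. Its log2 fold change was 0.84 with a standard error of 0.204, and it did not pass edgeR's test (adjusted p = 0.156), while it passed that of DESeq2 (adjusted p = 0.00647). NM_001256293 had 0 counts in both PANC-1 libraries and 23 and 24 counts in PZT-2. Against a floor of 3 counts per library its mean normalized count was at least 7.67-fold higher in PZT-2, and it too passed DESeq2 (adjusted p = 0.00619) but not edgeR (adjusted p = 0.119). NM_001256282 had 248 and 142 counts in PANC-1 and 54 and 170 in PZT-2, which overlap.

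Grouped by start, a grouping made after the values were seen and therefore given without a test, both transcripts that begin within KRT18 together took 0.542% and 0.448% of the KRT8 counts in PANC-1 and 1.86% and 2.42% in PZT-2. Their summed normalized counts were 205 ± 30.99 (SD, n = 2) in PANC-1 and 393 ± 64.9 (n = 2) in PZT-2, a ratio of 1.91. NM_002273 took 98.8% and 99.2% of KRT8 counts in PANC-1 and 97.8% and 96.7% in PZT-2. The KRT8 transcripts are told apart by short stretches. Of 31-base words, 148 of 1852 in NM_002273, 308 of 2096 in NR_045962, 57 of 1657 in NM_001256282 and 24 of 1725 in NM_001256293 occur in no other KRT8 transcript. The library kit kept the strand, but whether kallisto used it is not given in the sources used here, so reads from the 135 bases shared by NR_045962 and KRT18 may not have been told apart, and their part in these counts was not tested.

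**Figure D3:**
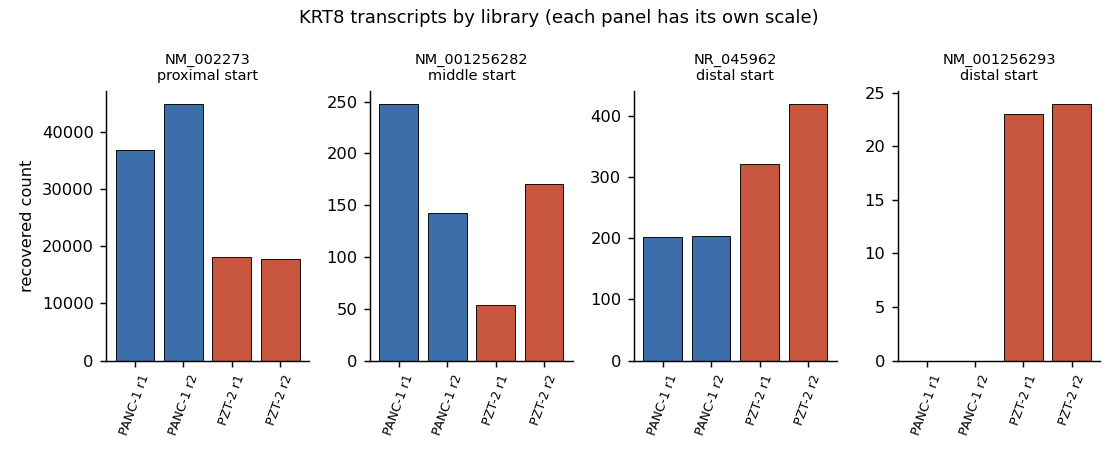
Recovered counts of the 4 KRT8 transcripts in each library, each panel on its own linear scale from 0 (r1 and r2 are replicates 1 and 2). NM_002273 is lower in both PZT-2 libraries, NR_045962 and NM_001256293 are higher in both, and NM_001256282 overlaps between the cell lines.

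KRT80, a type II keratin found in most types of epithelium, had normalized counts of 2939 and 2388 in PANC-1 and 2004 and 2138 in PZT-2. The lower PANC-1 library stood 250.2 above the higher PZT-2 library, less than the gap of 551 between the PANC-1 libraries. The log2 fold change was -0.36 with a standard error of 0.103 and an adjusted p of 0.0417 (edgeR). The call was lost when PZT-2 replicate 1 (adjusted p = 0.183) or replicate 2 (0.120) was left out and with the replicate number as a block (0.0585). Its transcripts NM_182507 and NM_001081492 differ in coding length (1356 and 1266 bases). NM_182507 had 1989 and 1819 counts in PANC-1 and 1307 and 1483 in PZT-2 (log2 fold change -0.49, edgeR adjusted p = 0.291, DESeq2 adjusted p = 0.0334). NM_001081492 had 624 and 825 counts in PANC-1 and 685 and 680 in PZT-2 (log2 fold change -0.10, edgeR adjusted p = 0.632). Whether these changes differ from each other was not tested.

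KRT7, a type II keratin of ducts and other simple epithelia, was scarce in both lines. Its normalized counts were 143 and 114 in PANC-1 and 104 and 109 in PZT-2. The change of -0.27 on the log2 scale had an adjusted p of 0.286 (edgeR). The groups did not overlap, but the nearest values were within 5.08 of each other. Of the 31-base words of its coding sequence, 14.2% also occur, in either orientation, in the antisense gene KRT7-AS, which had 12 to 19 counts a library.

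KRT81 and KRT86 are type II keratins of hair. KRT81 had normalized counts of 32.6 and 30.7 in PANC-1 and 37.2 and 29.7 in PZT-2, which overlap. Its log2 fold change of 0.080 (adjusted p = 0.873, edgeR) turned to -0.093 without PZT-2 replicate 1, so no direction could be given. KRT86 had 37.1 and 37.9 in PANC-1 and 22.1 and 29.7 in PZT-2, with a log2 fold change of -0.53, a standard error of 0.302 and an adjusted p of 0.241 (edgeR). Their coding sequences were identical at 93.7% of 1454 aligned bases, with a run of 605 identical bases, and 55.2% of the 31-base words of KRT81 occur in KRT86. Values of each gene alone are therefore uncertain. The stretch from coding base 1249 to 1308 is shown because it holds 14 of the differences by which reads can be assigned, given in capitals (GENCODE 29).
KRT81: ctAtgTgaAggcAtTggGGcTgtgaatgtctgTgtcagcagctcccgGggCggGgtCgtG
KRT86: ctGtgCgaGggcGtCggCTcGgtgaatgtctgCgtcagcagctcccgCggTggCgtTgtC

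Among type I keratins, KRT18, the usual partner of KRT8, had normalized counts of 22062 and 21312 in PANC-1 and 12379 and 12438 in PZT-2. Both PZT-2 libraries lay well below both PANC-1 libraries, and the log2 fold change was -0.81 with a standard error of 0.0426 and an adjusted p of 2.02e-04 (edgeR). Nearly all of it was NM_000224 (chr12:52948964-52952901, plus strand, GRCh38), with 19282 and 23299 recovered counts in PANC-1 and 12234 and 12177 in PZT-2 (log2 fold change -0.82, edgeR adjusted p = 0.0449). The other transcript, NM_199187, has the same coding length and differs in its first exons. It had 333 and 295 counts in PANC-1 and 70 and 406 in PZT-2, which overlap.

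KRT19, the smallest type I keratin and a marker of pancreatic ducts, had normalized counts of 22343 and 23040 in PANC-1 and 13888 and 13532 in PZT-2. The groups were far apart, with a log2 fold change of -0.73, a standard error of 0.0429 and an adjusted p of 2.45e-04 (edgeR). It came from 1 transcript, NM_002276 (chr17:41523617-41528308, minus strand, GRCh38). In the table of transcripts this fold change did not pass edgeR (adjusted p = 0.0575) and passed DESeq2 (1.09e-69). KRT18 and KRT19 kept their calls as genes in each of the 15 other fits, with highest adjusted p of 0.00514 and 0.00673, but neither reached a 2-fold change.

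KRT8 and KRT18 have many processed pseudogenes, and KRT8 models run through KRT18. In GENCODE 29, 68.3% of the 31-base words of the KRT8 coding sequence and 81.0% of those of KRT18 occur in another gene, in either orientation, against 13.2% for KRT19 and 1.81% for KRT10. For KRT18 the genes sharing most were the pseudogene KRT18P11 (28.2%) and KRT8 itself (27.4%), and the part of this in the ratio of KRT8 to KRT18 was not tested. The pseudogene rows with counts were low. KRT8P41 had 6 to 11 recovered counts a library and KRT18P55 had 5 to 13, and neither passed the test.

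KRT10, a type I keratin of the upper layers of stratified epithelia, had normalized counts of 1036 and 959 in PANC-1 and 801 and 882 in PZT-2. The log2 fold change was -0.24 with a standard error of 0.0798, and the adjusted p of 0.0641 (edgeR) missed the threshold, although it passed without PANC-1 replicate 2 (0.0226) and with at least 10 counts required in every library (0.0435). KRT15, a type I keratin of basal cells, had 270 and 294 in PANC-1 and 244 and 252 in PZT-2, with a log2 fold change of -0.19 and an adjusted p of 0.229 (edgeR). Both PZT-2 libraries were the lower ones for each of these genes.

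**Figure D4:**
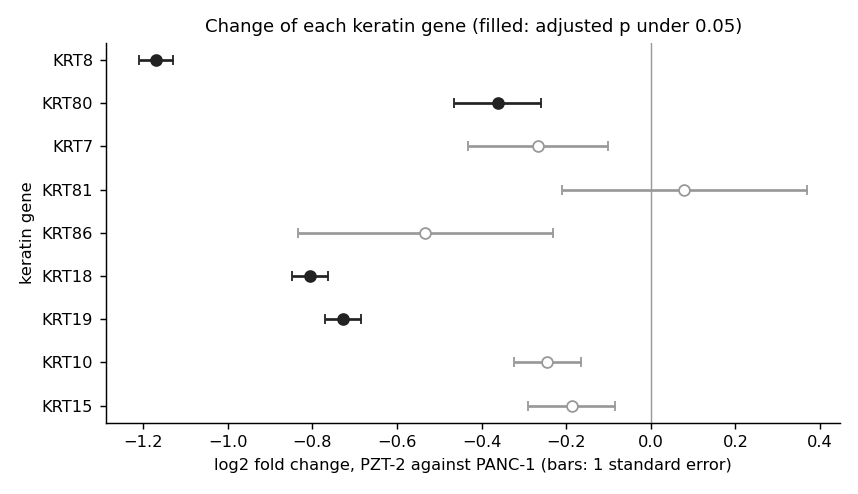
Log2 fold change of each keratin gene, PZT-2 against PANC-1, with bars of 1 standard error and filled points where the edgeR adjusted p is under 0.05. KRT8 is farthest below 0, KRT18 and KRT19 follow, and KRT81, whose sign turns without PZT-2 replicate 1, lies at 0.080 with a wide bar.

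Since filaments pair a type I with a type II chain, the summed TPM of each type was compared. These sums are of RNA and do not give the balance of the protein chains. Type II keratins came to 3240 and 3248 TPM in PANC-1 and 1555 and 1511 TPM in PZT-2. Type I keratins came to 4182 and 4311 TPM in PANC-1 and 2640 and 2605 TPM in PZT-2. Both sums were lower in PZT-2, and the type II sum was lower by more, so that type II over type I was 0.775 and 0.754 in PANC-1 and 0.589 and 0.580 in PZT-2. For KRT8 over KRT18 alone the ratio of TPM was 1.54 ± 0.0115 (SD, n = 2) in PANC-1 and 1.19 ± 0.0286 (n = 2) in PZT-2. For KRT18 over KRT19 it was 0.992 and 0.929 in PANC-1 and 0.895 and 0.924 in PZT-2, close to each other. With 2 against 2 libraries an exact two-sided permutation test cannot give less than 0.333, which is what each of these sums and ratios gave. KRT8, KRT18 and KRT19 made up 96.0% to 97.7% of the keratin TPM in every library, and the 9 genes together took 0.742% and 0.756% of all TPM in PANC-1 and 0.419% and 0.412% in PZT-2.

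**Figure D5:**
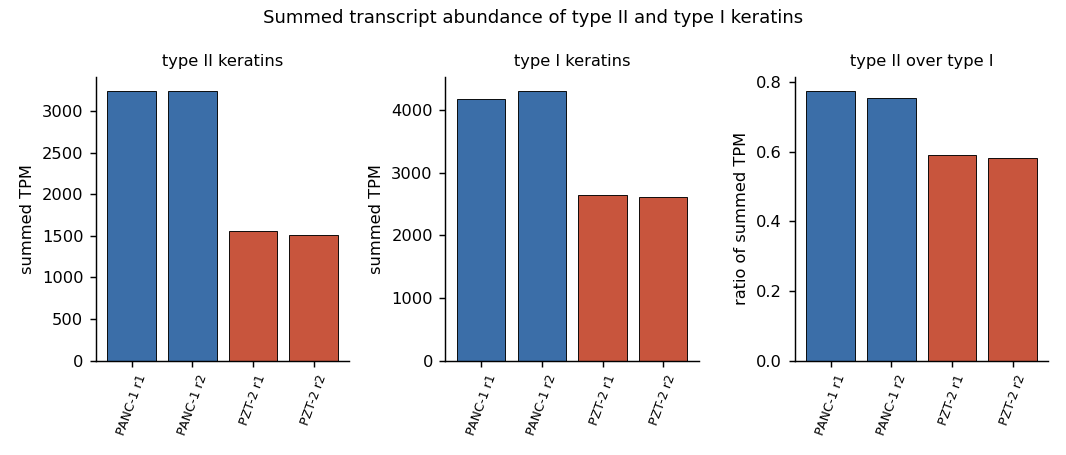
Summed TPM of type II keratins (left) and type I keratins (middle) and their ratio (right) in each library, on linear axes from 0 (r1 and r2 are replicates 1 and 2). Both sums and the ratio are lower in both PZT-2 libraries.

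Of the 47 other keratin genes in the symbol column only KRT32, a type I keratin of hair, had counts. Its recovered counts were 12 and 14 in PANC-1 and 28 and 31 in PZT-2, both higher, with a log2 fold change of 1.16 and an adjusted p of 0.0460 (edgeR). The call was lost with DESeq2 (0.256) and without any 1 of the 4 libraries (0.0849 to 0.174).

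Other intermediate filament genes changed in both directions. Of 16 listed 9 were tested, and 1 was higher and 3 were lower, where 14.7% and 13.7% of all genes tested were. VIM, which encodes vimentin, the filament protein of mesenchymal cells and of many cultured lines, had normalized counts of 106040 and 104453 in PANC-1 and 76355 and 74678 in PZT-2, a fall by 0.48 on the log2 scale (edgeR adjusted p = 3.66e-04). LMNA, which encodes the nuclear lamins A and C, fell by 0.17 on the log2 scale (0.0249), and BFSP1, a beaded filament gene of the lens, fell by 0.62 (0.0225). Both calls were lost when either PZT-2 library was left out (0.155 and 0.180 for LMNA, 0.105 and 0.113 for BFSP1), and that of BFSP1 with DESeq2 (0.156). SYNC, which encodes the intermediate filament protein syncoilin, rose by 1.29 (0.00408), with 40.5 and 39.7 in PANC-1 and 96.6 and 99.8 in PZT-2. The calls of SYNC and BFSP1 were lost with the most abundant transcript alone. The median log2 fold change of these 9 genes was -0.032.

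The desmosome and plakin genes, whose products tie keratin filaments to cell junctions, also moved both ways. Of 20 listed 14 were tested, and 3 were higher and 5 lower, against 14.7% and 13.7% of all genes, with a median log2 fold change of -0.12. DSP, which encodes desmoplakin, the main link between keratin and the desmosome, had normalized counts of 234 and 285 in PANC-1 and 92.6 and 68.2 in PZT-2 (log2 fold change -1.69, edgeR adjusted p = 0.00156). JUP, which encodes plakoglobin, fell by 0.55 (0.00535), and DST, a plakin of hemidesmosomes, fell by 0.58 (0.0154). The call of DST was lost with limma-trend on log2 TPM and with the most abundant transcript alone. PKP1, which encodes plakophilin 1, rose by 1.05 (0.0307), from 24.7 and 37.9 to 64.4 and 67.2. That call was lost with DESeq2 (0.110) and without PANC-1 replicate 1 (0.0685) or either library of PZT-2 (0.104 and 0.136). Of the 6 hemidesmosome genes 2 passed, both lower, where 28.4% of all genes passed in either direction. ITGB4, the integrin beta 4 subunit that binds the keratin linker plectin, had 2616 and 2520 in PANC-1 and 602 and 560 in PZT-2 (log2 fold change -2.14, edgeR adjusted p = 5.97e-05). DST was the other.

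Of 9 genes for keratin-binding proteins 2 were higher and 2 lower, where 14.7% and 13.7% of all genes were, with a median log2 fold change of 0.018. FBF1 fell by 0.53 (edgeR adjusted p = 0.00811) and SFN, a 14-3-3 protein, fell by 0.28 (0.0206), while the kinase gene CSNK1A1 rose by 0.41 (0.00259) and the small heat shock protein gene HSPB1 rose by 0.24 (0.0153). The calls of CSNK1A1 and SFN were lost with the most abundant transcript alone. When PZT-2 replicate 1 or 2 was left out, the calls of SFN (0.146 and 0.0782) and HSPB1 (0.120 and 0.107) were lost, and that of FBF1 was lost without replicate 2 (0.0536). Of 15 transcription factor genes linked to keratin transcription 12 were tested, and 2 were higher and 4 lower, set against the same shares of all genes, with a median of -0.23. TFAP2C, an AP-2 factor, had normalized counts of 85.5 and 93.0 in PANC-1 and 246 and 240 in PZT-2 (log2 fold change 1.44, edgeR adjusted p = 7.68e-04). JUN, an AP-1 subunit, rose by 0.42 (0.0261). GRHL3, a factor of epithelial barrier genes, fell by 1.23 (0.0110), and JUND, another AP-1 subunit, fell by 0.97 (0.00631). The call of JUN was lost without PZT-2 replicate 1 (0.0586) or 2 (0.150), and that of GRHL3 without replicate 2 (0.0528). With the most abundant transcript alone the call of JUN was lost too. Across the 5 lists and KRT32, 24 genes passed, where 28.4% of all genes tested did. Fewer passed when either PZT-2 library was left out, as was so over all genes.

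The labelled cell type was checked against markers. The 7 ductal and epithelial genes analysed here summed to 2374 and 2473 TPM in PANC-1 and 1664 and 1611 TPM in PZT-2. Most of this was KRT19, itself a keratin of the set, with 2058 and 2192 TPM in PANC-1 and 1356 and 1315 TPM in PZT-2. Without KRT19 the sum overlapped between the cell lines, so the lower sum restates the fall of KRT19 and is no separate check. CDH1, which encodes E-cadherin, had normalized counts of 116 and 148 in PANC-1 and 0 and 18.8 in PZT-2 (edgeR adjusted p = 0.0102, DESeq2 0.263). SOX9 rose by 0.25 (0.0373), MUC1 fell by 0.51 (0.0234), and EPCAM and CLDN4 did not pass. The call of SOX9 was lost without PANC-1 replicate 2 (0.0570) or either library of PZT-2 (0.193 and 0.134), and that of MUC1 without PZT-2 replicate 2 (0.129). With the most abundant transcript alone the calls of CDH1, SOX9 and MUC1 were lost as well. None of the markers listed for acinar cells, endocrine cells or keratinocytes had a value here. Of 5 fibroblast genes COL1A1 (log2 fold change -1.75, edgeR adjusted p = 4.59e-04) and PDGFRB had counts, 3.33 to 11.9 TPM in sum, and of 3 leukocyte genes CD68 did, at 117 to 130 TPM. Their part in the keratin values was not tested.

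The genes with the nearest profile over the 4 libraries, by Euclidean distance of centred log2 CPM among 9321 tested genes other than keratins with a mean of at least 10 CPM, were DAB2IP and GAS6 for KRT8 (distances 0.0435 and 0.0460), SLC25A5 and RPL10 for KRT18 (0.0426 and 0.0439), ERAP2 and EPHB4 for KRT19 (0.0167 and 0.0332) and ASL and ZNF428 for KRT7 (0.0125 and 0.0255). With 4 libraries in 2 groups such likeness is mostly a like fold change. DAB2IP, for example, had normalized counts of 357 and 343 in PANC-1 and 152 and 148 in PZT-2 (log2 fold change -1.22).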

How the data were processed

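Stranded mRNA libraries were read from both ends. The authors used Trim Galore 0.4.1 for trimming, kallisto 0.43.0 on RefSeq transcripts for abundances and sleuth 0.29.0 for tests. The submitters' notes name hg19. The deposited table gives estimated counts, TPM and effective lengths per transcript and library; the authors' own fold changes and p-values, in a second table, were not used, only its gene symbols. The deposited estimated counts carry 1 factor per library (1.16, 0.935, 1.03 and 1.01), which was undone. Values between 0.5 and 30 of genes with 1 transcript were then whole to within 0.01 in 49.0% to 50.0% of cases, against 0.635% to 2.71% as deposited. The factors were chosen to make values of such genes whole, so this rise is no independent check of them. Counts were rounded and summed per gene. Transcripts were named by the symbol table (27049) or by RefSeq accession (3925), and 103, with 0.0466% of the counts, stayed unnamed.

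Genes and transcripts that reached 5 counts in 2 or more libraries were tested in R 4.3.3 with edgeR 4.0.16 (TMM, quasi-likelihood, Benjamini-Hochberg over all genes or all transcripts, threshold 0.05). Normalized counts are scaled to the mean library. Replicates differed by more than sampling noise (chi-square per gene 5.81 in PANC-1 and 3.36 in PZT-2). Alternatives used DESeq2 1.42.0 and limma 3.58.1. The tests were tried on simulated data, whose results are not used here to judge the calls. The members and lists were chosen with earlier results of these data known. Named are the members, other keratins and, of each list, at most 4 called genes with the largest change. Sequences come from GENCODE 29 on GRCh38, which is not the authors' index, so 31-base word counts and models can differ from theirs. KRT81 and KRT86, with 22 to 42 counts a library, had standard errors of 0.290 and 0.302 on the log2 scale, against 0.0398 for KRT8. Transcripts split within a gene could vary more than their depth, as NM_199187 did (70 to 406 counts, standard error 0.889).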

Additional observations from a re-analysis of the deposited data

How the results depend on the processing

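KRT8, KRT18 and KRT19 passed as genes, and lower in PZT-2, under each of the 15 other fits. Over the fits that used all 4 libraries, 3 to 5 keratin genes were called. The share of all genes called in those fits ran from 14.1%, with the most abundant transcript alone, to 35.9%, with at least 10 counts in every library. With a further 2-fold minimum 1 gene, KRT8, was left. KRT80 was lost in 7 of the 15 other fits, among them limma-trend on log2(TPM + 1) (adjusted p = 0.0801), the deposited counts (0.0531) and the most abundant transcript alone (0.129). Of 14 keratin transcripts 2 passed edgeR. With DESeq2 6 passed, where 14.4% of all transcripts did, with the deposited counts 1 passed, and with 1 library left out 0 passed in every case, with 4 to 5 at an unadjusted p under 0.05. Those 4 fits and the block called no transcript of any gene, so they do not bear on the keratins in particular.

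The replicate number as a block left 3 keratin genes and 21 list genes, where 24.6% of all genes passed. It left 0 keratin transcripts (3 at an unadjusted p under 0.05). The deviations of same-numbered libraries had a correlation of -0.021 over genes. Such a correlation cannot show whether same-numbered libraries shared a culture, a preparation or a run, and this was not tested. The calls on list genes numbered 11 to 25 with 1 library left out. Signs turned in 3 cases, each without PZT-2 replicate 1, which were KRT81 (from -0.093 to 0.23 over the fits that leave out a library), its transcript NM_002281 (from -0.10 to 0.23) and NM_199187 of KRT18 (from -2.19 to 0.32). Type II over type I moved from -0.39 on the log2 scale to -0.35 with sums of CPM in place of TPM. Over all genes the number called was 4292, and it fell to 2312 and 1865 without PZT-2 replicates 1 and 2 and to 2130 with the most abundant transcript alone. Over all transcripts it was 45, and 19 with the deposited counts, 1209 with at least 10 counts in every library, 348 with limma-trend on log2(TPM + 1) and 353 with the version 4 dispersion. The causes were not tested.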
